A study of Mus musculus with 12 samples.

Results

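The vascular basement membrane genes described here are 10 genes, Col4a1, Col4a2, Lama2, Lama4, Lama5, Lamb1, Lamb2, Lamc1, Nid1 and Hspg2. They were chosen by name for the proteins they encode and not by a rule on their values. Earlier results of these data were known when they were chosen. All 10 were found among the 54119 genes for which transcript counts could be summed, and all 10 were among the 19150 genes tested. RNA-seq was performed on cerebral vessels of wild-type C57BL6 mice aged 2 to 3 months that received PBS or LPS by intraperitoneal injection. LPS, the cell wall lipopolysaccharide of E. coli O55:B5, was given at 10 mg/kg, and vessels were taken after 15 min, 30 min or 4 h. Each of the 4 groups (PBS and the 3 times after LPS) had 3 libraries, and every library pooled the vessels of 1 male and 1 female mouse, so the sexes cannot be told apart. The vessels were isolated by homogenisation, density and filtration without sorting, so each library holds RNA of every cell type attached to the vessels. The only control group received PBS, and the sources used here do not say how long after PBS those mice were killed. The time after an injection and the effect of LPS cannot be told apart in these groups.

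A basement membrane is a thin sheet of matrix on which endothelial cells rest and in which pericytes are embedded. In brain vessels an endothelial sheet and an outer sheet facing the astrocyte endfeet run side by side, and both contribute to the barrier of the vessel wall. Laminins are trimers of an alpha, a beta and a gamma chain that assemble first at the cell surface, type IV collagen forms a covalent network beside them, and nidogen and the heparan sulfate proteoglycan perlecan link the networks. Lama4 and Lama5 encode the alpha chains of endothelial laminins and Lama2 the alpha chain of the laminin of astrocyte endfeet and mural cells. Lamb1 and Lamb2 encode beta chains, Lamc1 the gamma chain that most laminins of vessels share, Nid1 nidogen-1, and Hspg2 perlecan. Col4a1 and Col4a2 encode the chains that form the main type IV collagen trimer of vessels.

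Col4a1 and Col4a2 are arranged head to head on chromosome 8, Col4a1 at chr8:11198423-11312826 on the minus strand and Col4a2 at chr8:11312805-11449287 on the plus strand (GRCm38). Their annotated starts lie so close that both genes cover the 22 bases of chr8:11312805-11312826, which are shown because no other pair of members shares a start region. Promoter windows of RefSeq (GRCm38.p6, 300 bases, from 250 before to 50 after the start) were at hand for 8 of the 10 genes, all but Lama4 and Lamc1. Stretches before the RefSeq start are shown for Hspg2 and Lamb2, whose windows held the most and the fewest GC boxes. They extend as far as no annotated exon covers them. That of Lamb2 lies inside the gene as annotated by GENCODE, which starts at chr9:108479736. Capitals mark the GC box (GGGCGG, searched on both strands), all sequences are 5′ to 3′, and the lines give in order the shared stretch read along Col4a2 (plus strand) and along Col4a1 (minus strand), then Hspg2 (chr4:137468553-137468768, plus strand) and Lamb2 (chr9:108479779-108479856, plus strand).
Col4a2: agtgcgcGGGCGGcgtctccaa
Col4a1: ttggagacgCCGCCCgcgcact
Hspg2: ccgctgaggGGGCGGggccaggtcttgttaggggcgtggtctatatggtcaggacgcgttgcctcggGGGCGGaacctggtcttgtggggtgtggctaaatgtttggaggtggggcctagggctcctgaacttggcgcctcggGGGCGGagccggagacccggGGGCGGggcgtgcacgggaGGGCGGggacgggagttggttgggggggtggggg
Lamb2: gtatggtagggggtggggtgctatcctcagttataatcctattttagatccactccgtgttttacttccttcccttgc

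A GC box, the motif bound by Sp family factors, was found in 7 of the 8 windows, against 35.7% of the 32851 promoter windows of the same length. Hspg2 held 5, Lama5 held 4, Col4a2 held 3, Lamb1 held 2 and Lamb2 held 0. A CCAAT box (CCAAT on either strand) was found in 4 of the 8, in Col4a1, Col4a2, Lamb1 and Nid1, against 37.4% of all windows. None of the 8 windows held TATAAA (13.6% of all windows), the AP-1 motif TGACTCA (5.20%) or a match to the NF-κB consensus (4.51%). These matches describe the letters of the windows only.

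Libraries held 18309177 to 25882028 assigned fragments. The 10 genes took 0.369 to 0.378% of them in the PBS libraries, 0.291 to 0.294% at 15 min, 0.275 to 0.282% at 30 min and 0.389 to 0.400% at 4 h. Levels are given as CPM, fragment counts set to a common library size after the scaling of edgeR (TMM), and levels of different genes are compared only in TPM, which also divides by transcript length. The scaling moved fold changes against PBS by 0.70 on the log2 scale at 4 h, 0.16 at 30 min and 0.02 at 15 min relative to scaling by library size alone. A direction at 4 h that rests on this shift is named as such. A gene was called where its change exceeded 1.5-fold at an adjusted p under 0.05 (edgeR, glmTreat), and a second test asked only for any change from 0. In bulk tissue fewer cells of a type and less RNA per cell cannot be told apart.

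Under PBS the genes ranged from 15.8 ± 1.3 TPM for Lama2 to 368 ± 16 TPM for Lamb2 (SD, n = 3), above 60.6 and 98.4% of the genes tested. Lamb2 was followed by Col4a1 (156 ± 2.8 TPM), Col4a2 (138 ± 2.1 TPM), Lama5 (124 ± 6.2 TPM) and Hspg2 (115 ± 4.2 TPM). The chain shared by most laminins, Lamc1, stood at 92.7 ± 3.6 TPM, with Lama4 (39.8 ± 3.6 TPM), Nid1 (26.7 ± 0.38 TPM) and Lamb1 (18.2 ± 1.3 TPM) below it. The PBS ranges of neighbours in this order did not overlap, although Lama5 (120 to 131 TPM) and Hspg2 (112 to 119 TPM), and likewise Lamb1 (17.3 to 19.7 TPM) and Lama2 (14.7 to 17.2 TPM), were separated by less than the range of either gene. The order depended on short annotated transcripts. By the longest protein-coding transcript alone, Hspg2 moved from the fifth to the seventh place. It had 19.6 ± 0.74 TPM against 32.1 ± 0.86 TPM for Lamc1 and 26.6 ± 0.37 TPM for Nid1. This leaves out another coding transcript of Hspg2 of nearly the same length (14176 bases), which held 8.8 ± 0.53% of its TPM under PBS.

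The first question of the time course is how early after LPS the vessels respond. At 15 min none of the 10 genes was called beyond 1.5-fold, against 4.25% of all genes, and at 30 min again none was called, against 4.62%. Every one of the 10 was nevertheless below PBS at 15 min by the test against no change, which called 18.2% of all genes lower. The median log2 fold change of the 10 was -0.26 at 15 min and -0.15 at 30 min, beside -0.0021 and -0.010 over all genes. At 30 min 7 of the 10 were lower by the same test, which called 17.2% of all genes lower, and Lama2, Lama4 and Lamb1 were not.

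The early decrease was deepest in the collagen pair and in Lama5. Col4a1 stood at 640, 631 and 626 CPM in the PBS libraries, at 467, 470 and 482 CPM at 15 min and at 488, 492 and 485 CPM at 30 min. Col4a2 stood at 543, 556 and 546 CPM under PBS, at 409, 412 and 410 CPM at 15 min and at 404, 406 and 391 CPM at 30 min. For both collagen genes every early LPS library lay below every PBS library. Col4a1 was 25.1% lower at 15 min (log2 fold change -0.42 ± 0.02 SE, adjusted p = 2.0e-13) and 22.8% lower at 30 min (-0.37 ± 0.02, adjusted p = 1.2e-12). Col4a2 was 25.1% lower at 15 min (-0.42 ± 0.02, adjusted p = 1.0e-12) and 27.0% lower at 30 min (-0.45 ± 0.02, adjusted p = 1.8e-13). The intervals of these changes end inside the 1.5-fold threshold, with a lower bound of -0.50 for Col4a2 at 30 min.

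Lama5, the alpha chain of mature endothelial laminin, stood at 496, 503 and 460 CPM under PBS, at 367, 355 and 361 CPM at 15 min and at 418, 408 and 404 CPM at 30 min. In CPM its 15 min libraries were the lowest of the 3 groups and those at 30 min lay between them and PBS, with no overlap. In the deposited normalized counts the 30 min libraries ranged from 7545.9 to 10836.6. There they overlapped those of PBS (10181.2 to 11072.5) and those at 15 min. The log2 fold change was -0.43 ± 0.03 at 15 min (adjusted p = 1.2e-10) and -0.25 ± 0.03 at 30 min (adjusted p = 9.6e-07). Lamb1 (-0.27 ± 0.05), Lamb2 (-0.27 ± 0.03), Lama2 (-0.26 ± 0.06), Hspg2 (-0.26 ± 0.03), Nid1 (-0.21 ± 0.04) and Lama4 (-0.15 ± 0.05) were lower at 15 min by smaller amounts on the log2 scale. Lamc1 changed least, by -0.07 ± 0.03 (adjusted p = 0.026). In the deposited normalized counts the 15 min libraries of Lamc1 (4345.4 to 4497.3) overlapped those of PBS (4381.1 to 4707.3). They did so in TPM too (88.6 to 93.1 against 89.2 to 96.4). The 10 genes have long messages, with main transcripts of 5629 to 14187 bases. Of the genes with a mean of at least 10 CPM, 2350 had main transcripts of at least 5000 bases and 8543 had shorter ones. The median log2 fold change of the longer group was 0.01 at 15 min and -0.04 at 30 min. That of the shorter group was -0.00069 at 15 min and 0.02 at 30 min. At 30 min 30.6% of the longer and 20.8% of the shorter group were lower by the test against no change. Whether message length has a part in the early decrease was not tested.

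Between 15 and 30 min none of the 10 was called beyond 1.5-fold, against 4.76% of all genes. The test against no change found 5 of the 10 higher at 30 min, namely Lama4, Lama5, Lamb1, Lamb2 and Hspg2, and called 19.2% of all genes higher. Their changes were 0.08 to 0.18 on the log2 scale. With scaling by library size alone Lama4, Lamb2 and Hspg2 lay lower at 30 min (-0.01, -0.06 and -0.04), so their direction between these times depends on the scaling.

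**Figure D1:**
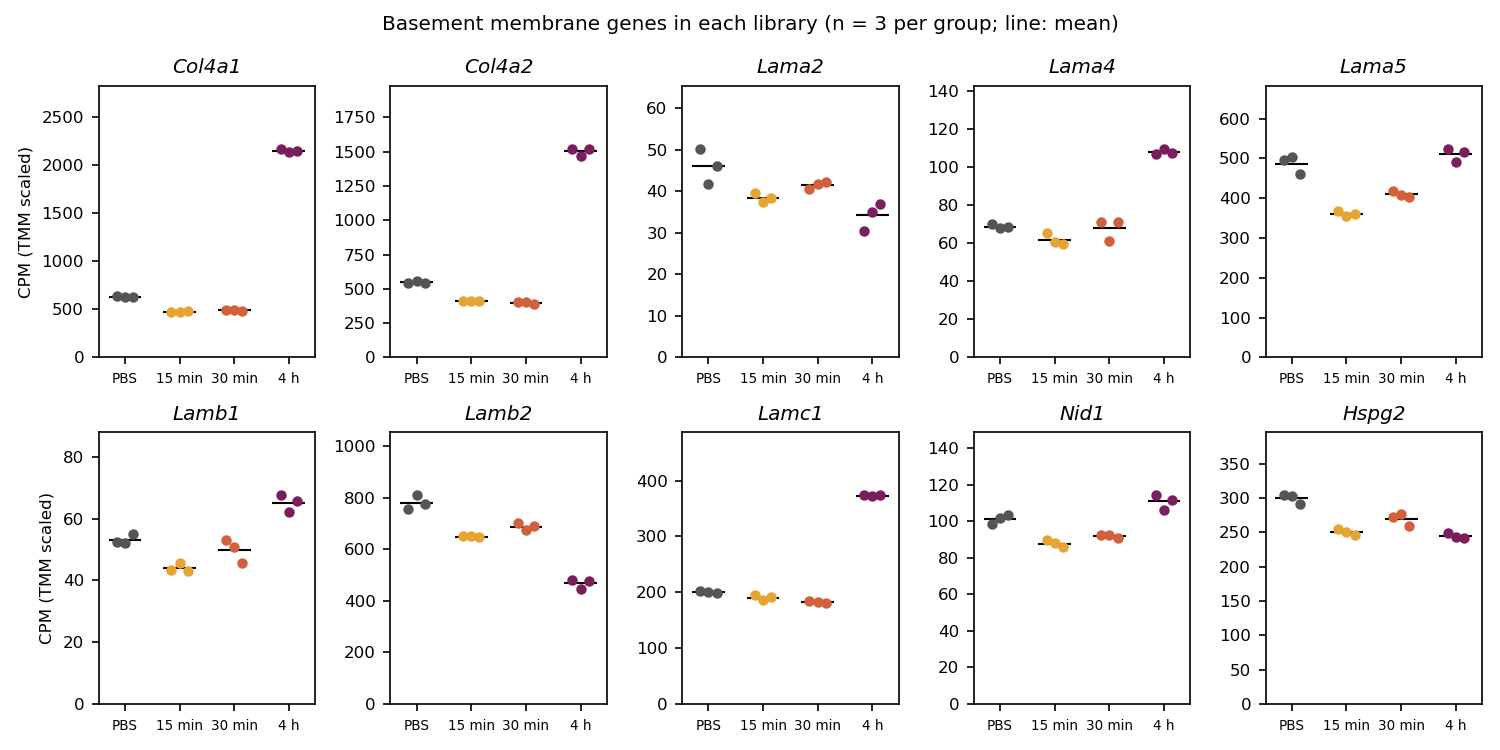
CPM of each basement membrane gene in every library (y axis, linear from 0; one panel per gene) under PBS and at the 3 times after LPS (x axis); points are libraries and lines group means. Col4a1, Col4a2, Lama4 and Lamc1 are highest at 4 h and Lamb2 is lowest there, while at 15 min the mean of every gene lies below that of PBS.

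At 4 h the genes no longer moved together. Col4a1, Col4a2 and Lamc1 rose beyond 1.5-fold against PBS, where 19.1% of all genes were called higher, and Lamb2 fell beyond it, where 13.9% were called lower. Of all genes called at 4 h 57.96% were higher, and 18.2% by library size alone. The remaining 6 were not called. The test against no change found 7 of the 10 higher, against 34.9% of all genes, and 3 lower, against 33.7%. The median over the 10 was 0.21 on the log2 scale, beside -0.01 over all genes, and the values ran from -0.74 to 1.76. By library size alone Lama4, Lama5, Lamb1 and Nid1 lay below PBS. The count of 7 higher and the sign of this median therefore rest on the TMM shift.

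The collagen chains rose most. Col4a1 reached 2170, 2131 and 2143 CPM in the 4 h libraries, 3.40 times the PBS level (log2 fold change 1.76, 95% interval 1.72 to 1.81, adjusted p = 3.3e-24). Col4a2 reached 1523, 1467 and 1517 CPM, 2.74 times the PBS level (1.45, interval 1.41 to 1.502, adjusted p = 3.9e-21). All 4 h libraries lay far above those of the other groups, and both genes were called beyond 1.5-fold under each of the 10 fits tried (the main fit and 9 others), with log2 fold changes of 1.06 to 1.77 for Col4a1 and 0.75 to 1.46 for Col4a2. In TPM, which carries no TMM scaling, Col4a1 went from 156 ± 2.8 to 282 ± 4.1 and Col4a2 from 138 ± 2.1 to 202 ± 5.1. These 2 genes thereby passed Lamb2 and had the highest TPM of the 10 at 4 h.

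Lamc1, the gamma chain, stood at 201, 200 and 199 CPM under PBS and at 374, 372 and 373 CPM at 4 h, with no overlap. It was 1.86 times higher (log2 fold change 0.90, interval 0.84 to 0.95, adjusted p = 1.4e-11) and was called under 7 of the 10 fits. By library size alone the change was 0.19, and with limma on the deposited normalized counts it was 0.66 with an adjusted p of 0.057. The beta chains parted. Lamb2, the most abundant laminin chain under PBS in TPM, stood at 757, 811 and 776 CPM under PBS and at 481, 446 and 476 CPM at 4 h, below every library of the other groups. Lamb2 fell by 0.74 on the log2 scale (interval -0.80 to -0.68, adjusted p = 6.6e-06) and was called under each of the 10 fits, from -1.44 to -0.74. Lamb1 stood at 52.5, 52.0 and 55.0 CPM under PBS and at 67.6, 62.1 and 65.8 CPM at 4 h, a change of 0.29 ± 0.06 that did not pass 1.5-fold and was -0.41 by library size alone.

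Among the alpha chains, Lama4 stood at 69.9, 68.0 and 68.2 CPM under PBS and at 107, 110 and 108 CPM at 4 h. The groups did not overlap, and the log2 fold change of 0.65 (interval 0.55 to 0.76) missed the 1.5-fold test, with an adjusted p of 0.071. It was -0.05 by library size alone and 0.13 when a change in average transcript length was taken into account. Lama5 was 486 ± 23 CPM under PBS and 511 ± 17 CPM at 4 h, with overlapping libraries and a log2 fold change of 0.07 (interval 0.01 to 0.14) that became -0.63, and was called, by library size alone. Lama2, known from astrocyte endfeet and mural cells, stood at 50.2, 41.8 and 46.0 CPM under PBS and at 30.5, 35.0 and 37.0 CPM at 4 h. Its log2 fold change of -0.42 (interval -0.57 to -0.28) did not pass 1.5-fold, and it was lower under each of the 10 fits. By library size alone it was -1.13 and was called.

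The linkers did not pass the 1.5-fold test. Nid1 was 101 ± 2.7 CPM under PBS and 111 ± 4.1 CPM at 4 h, a log2 fold change of 0.13 (interval 0.05 to 0.21) that was -0.57 by library size alone. Hspg2 stood at 304, 303 and 291 CPM under PBS and at 249, 243 and 242 CPM at 4 h, with no overlap. Its change of -0.29 (interval -0.35 to -0.23) was negative under each of the 10 fits, and by library size alone it was -0.996 and was called.

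**Figure D2:**
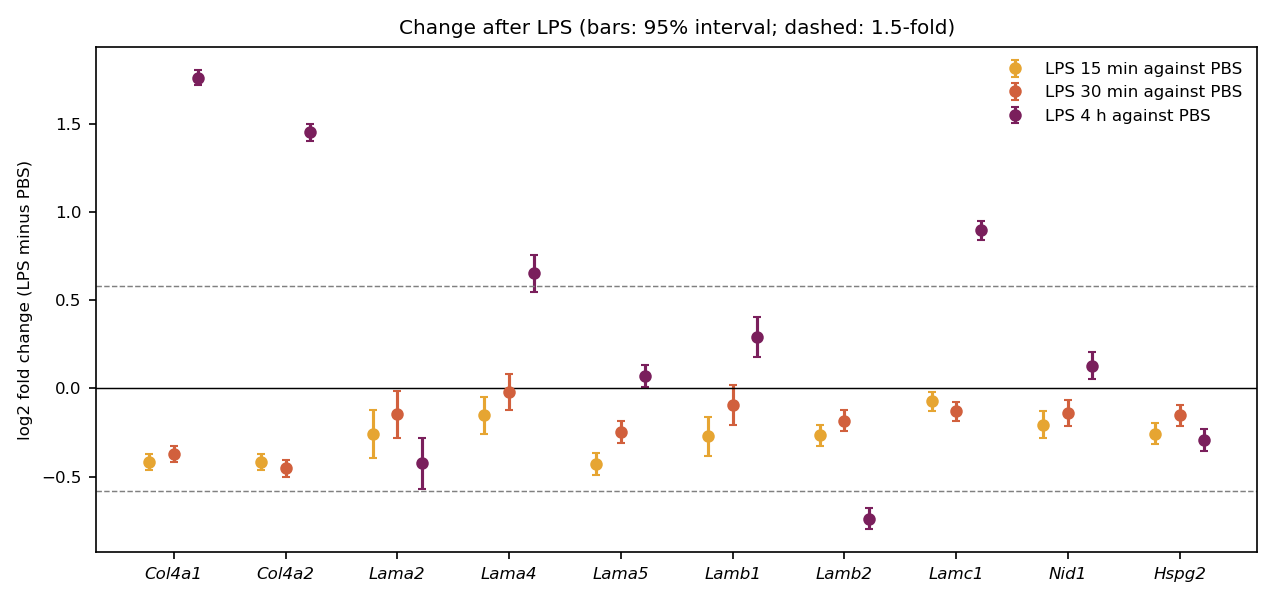
Log2 fold change of each gene against PBS (y axis) at the 3 times after LPS (colours), with 95% intervals from the fit (bars) and the 1.5-fold threshold (dashed). All points at 15 and 30 min lie between the dashed lines and below 0, whereas at 4 h they spread from -0.74 for Lamb2 to 1.76 for Col4a1.

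**Figure D3:**
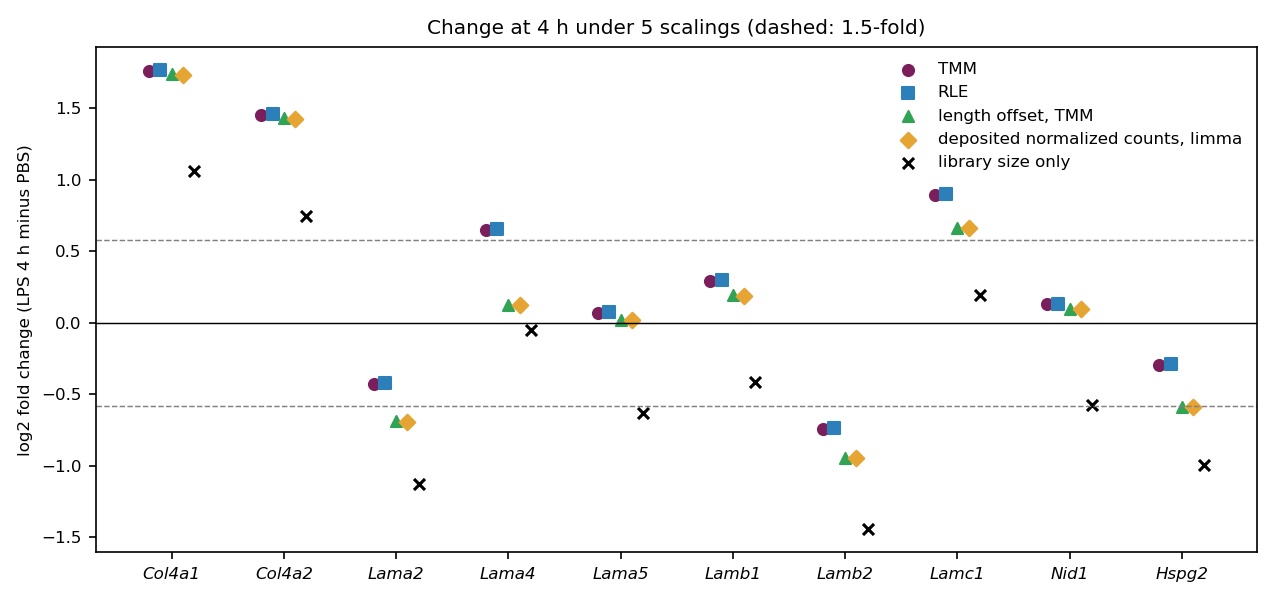
Log2 fold change at 4 h against PBS (y axis) for each gene under 5 scalings (symbols), with the 1.5-fold threshold dashed. Col4a1 and Col4a2 stay above the upper line and Lamb2 below the lower line under all 5, while Lama4, Lama5, Lamb1 and Nid1 lie above 0 under 4 of them and below 0 by library size alone.

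From 30 min to 4 h, 4 genes rose beyond 1.5-fold, against 17.0% of all genes, and none of the 10 fell beyond it, against 11.9%. Col4a1 rose by 2.14 ± 0.02 on the log2 scale (adjusted p = 4.4e-26), Col4a2 by 1.91 ± 0.02 (adjusted p = 4.0e-24), Lamc1 by 1.03 ± 0.03 (adjusted p = 3.1e-14) and Lama4 by 0.67 ± 0.05 (adjusted p = 0.041). Lama4 was at the edge of the threshold and lost the call without any 1 of 4 of the libraries compared (the second library at 30 min and each library at 4 h). Lamb2 had a log2 fold change of -0.56 ± 0.03 and was not called, with an adjusted p of 0.96. The 30 min and PBS comparisons at 4 h share the 4 h libraries.

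Ratios of 2 genes within 1 library do not depend on the scaling between libraries. For 6 ratios in TPM the 4 groups were compared with an exact permutation test (369600 relabellings, p adjusted over the 6). Its p is for any difference among the 4 groups and not for 4 h against PBS alone. Each ratio asks whether the RNA of 2 genes kept its proportion, and the chains in the matrix were not measured. Col4a1 to Col4a2 was 1.10 to 1.15 in the PBS libraries, 1.08 to 1.12 at 15 min, 1.182 to 1.205 at 30 min and 1.38 to 1.42 at 4 h. The 30 min and 4 h libraries lay above PBS without overlap, and the ratio differed between the groups (adjusted p = 0.00078). The 4 h ratio was 1.24 times that of PBS. Because the 2 genes overlap at their starts and the libraries do not record strand, fragments from that end cannot be assigned with certainty.

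The ratio of Lamb1 to Lamb2 was 0.0461 to 0.0520 under PBS and 0.0984 to 0.119 at 4 h, a rise of 2.19 times (adjusted p = 0.012). Hspg2 to Lamc1 moved the other way, from 1.16 to 1.34 under PBS to 0.507 to 0.530 at 4 h, which is 2.38 times lower (adjusted p = 0.0017). Nid1 to Lamc1 went from 0.272 to 0.302 under PBS to 0.183 to 0.208 at 4 h (1.48 times lower, adjusted p = 0.00078). In these 3 ratios the 4 h libraries overlapped with no other group. Lama2 to Lama4 was 0.392 to 0.404 under PBS and 0.200 to 0.282 at 4 h, 1.76 times lower (adjusted p = 0.012). Lama4 to Lama5 was 0.302 to 0.331 under PBS and 0.307 to 0.413 at 4 h, and a difference was not shown in gene TPM (adjusted p = 0.52). Its change at 4 h was 0.10 on the log2 scale in gene TPM. It was 0.58 from estimated counts (exact permutation p = 0.00058) and 0.63 from the longest coding transcripts (exact permutation p = 0.00084). Both p-values are again for any difference among the 4 groups.

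**Figure D4:**
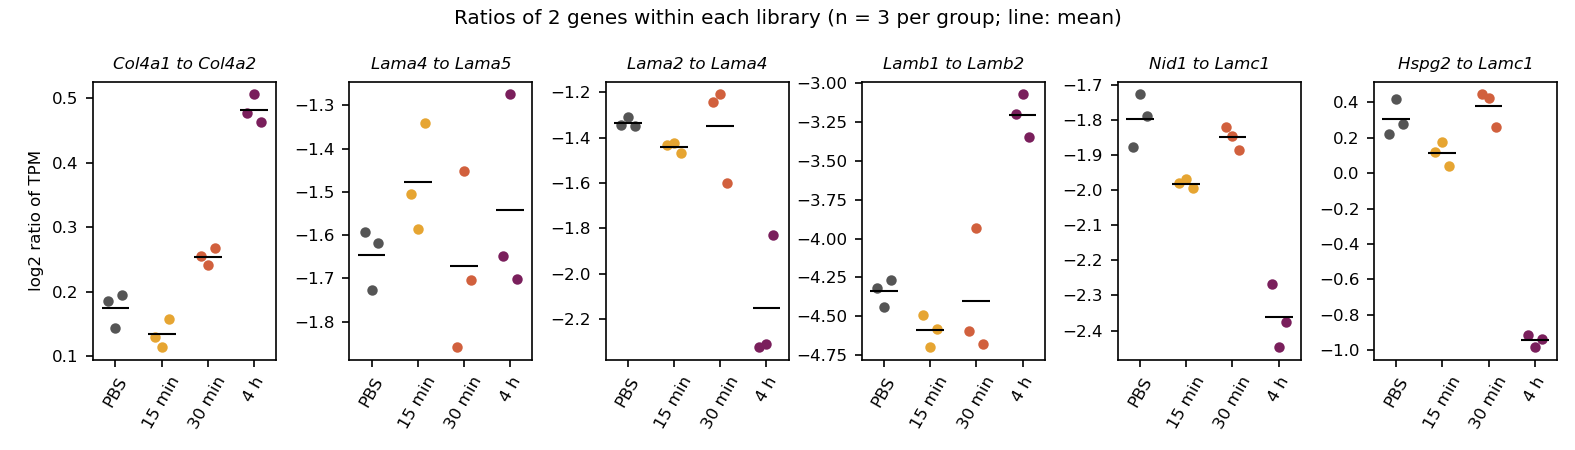
Log2 ratio of the TPM of 2 genes within each library (y axis, a separate range in each panel) under PBS and 3 times after LPS (x axis); points are libraries and lines group means. At 4 h the ratios of Col4a1 to Col4a2 and Lamb1 to Lamb2 are highest and those of Nid1 and Hspg2 to Lamc1 lowest, whereas for Lama4 to Lama5 the 4 h libraries overlap those of every other group.

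Short annotated transcripts carried much of the TPM of several genes. Of the TPM of Hspg2, 74.0 ± 1.3% under PBS and 68.1 ± 1.3% at 4 h came from a processed transcript of 820 bases. The longest coding transcript, of 14187 bases, gave 17.2 ± 1.1% and 18.8 ± 3.0%. Another coding transcript, of 14176 bases, gave 8.8 ± 0.53% and 13.1 ± 3.2%. Lama4 had 55.9 ± 3.8% of its TPM in a retained-intron transcript of 511 bases under PBS and 36.0 ± 5.4% at 4 h. The coding transcript of Lama4, of 6046 bases, took 44.1 ± 3.7% under PBS and 64.0 ± 5.3% at 4 h, and these ranges (41.0 to 48.2% and 59.3 to 69.8%) did not overlap. The retained-intron transcript of 511 bases held 855 fragments over all libraries, against 18984 for the coding one.

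The same shift away from a short form appeared in Lamc1 and Lama2. In Lamc1 the share of a 1447-base coding transcript was 64.2 ± 1.5% under PBS and 55.4 ± 2.4% at 4 h. In Lama2 a 3383-base transcript held 74.5 ± 1.7% under PBS and 61.2 ± 3.1% at 4 h. In Lamb2 a retained-intron transcript of 578 bases held 28.2 ± 4.1% under PBS, 35.1 ± 3.9% at 15 min and 21.8 ± 2.5% at 4 h. No test was run on these shares, and Salmon estimates them from fragments that forms of 1 gene have in common. Col4a1, Col4a2 and Nid1 were carried by their longest coding transcript in every group, with mean shares of 93.6 to 96.9%, 96.9 to 99.5% and 99.8 to 99.9%.

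By the longest coding transcript alone, all 10 TPM means were lower at 15 and 30 min than under PBS. At 4 h Lamc1 was 34.0 ± 1.0 TPM against 32.1 ± 0.86 TPM under PBS, and Lama4 was 15.0 ± 0.10 TPM against 17.5 ± 0.41 TPM. Hspg2 was 7.80 ± 1.3 TPM against 19.6 ± 0.74 TPM, without its other coding transcript of 14176 bases. Lamb2 was 68.2 ± 3.0 TPM against 212 ± 7.1 TPM. On this scale, which sets each gene against all RNA of the library, only the collagen pair and Lamc1 of the 10 had a higher mean at 4 h than under PBS. In TPM summed over all transcripts Lamc1 was lower at 4 h, at 79.7 ± 1.2 TPM against 92.7 ± 3.6 TPM under PBS.

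The remaining basement membrane chains and associated matrix proteins were a list of 19 genes. In this list 1 gene was called at 15 min, Ntn4, the gene of the laminin-binding netrin-4 (log2 fold change -0.70, adjusted p = 0.0093), and 1 at 30 min, Col15a1, a basement membrane collagen (-0.74, adjusted p = 0.032). Of all genes 4.25% were called at 15 min and 4.62% at 30 min. At 4 h 3 of the 19 rose and 7 fell, against 19.1 and 13.9% of all genes, with a median of -0.11. Fn1, fibronectin, rose from 1308 ± 23 to 2290 ± 25 CPM (0.81). Nid2, the second nidogen, rose by 0.80, from 45.1 ± 2.9 to 78.7 ± 0.19 CPM. By library size alone Fn1 and Nid2 were not called (0.10 for each). Lama1, an alpha chain of the outer sheet of brain vessels, fell from 49.8 ± 0.79 to 8.49 ± 1.0 CPM, or by 2.55 on the log2 scale. Vwa1, a perlecan-binding protein, fell from 510 ± 5.9 to 102 ± 4.1 CPM, or by 2.32, and Lama3 fell by 0.95 and Ntn4 by 0.91.

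Among 13 matrix receptors 1 was called at 15 min, Itgb4, a laminin-binding integrin subunit (-0.78, adjusted p = 0.024), and none at 30 min. Over all genes the shares called at these times were 4.25 and 4.62%. At 4 h 5 rose and 3 fell, against 19.1 and 13.9% of all genes, with a median of 0.18. The sign of this median rests on the TMM shift. Of those that rose, Ddr1 (0.65) was -0.05 by library size alone and was not called there. Itga2, a collagen-binding integrin subunit, rose from 0.966 ± 0.47 to 5.05 ± 0.54 CPM (2.39) and Itga5, which pairs in the fibronectin receptor, from 63.1 ± 3.2 to 311 ± 8.0 CPM (2.30). Itgav rose by 1.24 and Itga1, of the collagen receptor, by 0.68, although by library size alone Itgav was 0.53 and Itga1 -0.02 and neither was called. Itgb4 fell by 1.54, Bcam, a receptor of the laminin alpha 5 chain, fell by 0.92, and Dag1, the laminin receptor dystroglycan, fell by 0.66.

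Genes of collagen synthesis and cross-linking were a list of 18. P4ha1 and P4ha2, prolyl hydroxylase subunits that stabilise the collagen helix, rose at 15 min (0.82 and 0.89) and at 30 min (1.05 and 1.11), when Col4a1 and Col4a2 stood below PBS. Pxdn, the peroxidase that cross-links type IV collagen, rose at 15 min (0.79) and Serpinh1, the collagen chaperone, at 30 min (0.78), while Lox, a lysyl oxidase, fell at 15 min by 0.84. At 4 h 4 of the 18 rose and 1 fell, against 19.1 and 13.9% of all genes, with a median of 0.02 whose sign rests on the TMM shift. Loxl4, Lox and Loxl2, of the lysyl oxidase family, rose by 3.85, 2.34 and 1.40, Plod3, a lysyl hydroxylase, by 0.66, and Crtap, of the prolyl 3-hydroxylation complex, fell by 1.23. By library size alone Plod3 (-0.05) and, at 30 min, Serpinh1 (0.61) were not called.

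Matrix proteases and their inhibitors were a list of 15. Adamts1, a secreted protease of proteoglycans, rose from 105 ± 2.3 CPM under PBS to 383 ± 4.5 CPM at 15 min and 962 ± 8.6 CPM at 30 min, and Mmp14 fell at 15 min by 0.96. At 30 min Timp3, a matrix-bound metalloproteinase inhibitor, rose by 0.89 and Plat, tissue plasminogen activator, by 0.74, where Plat was 0.57 and not called by library size alone. At 4 h 11 of the 15 rose and none fell, against 19.1 and 13.9% of all genes, with a median of 1.65 beside -0.01 over all genes. Mmp3, stromelysin-1, stood at 51.6 ± 2.7 CPM against 0.0604 ± 0.020 under PBS, Adamts4 at 633 ± 17 CPM against 2.83 ± 1.2 and Adamts9 at 1577 ± 15 CPM against 11.7 ± 0.70. Timp1, a metalloproteinase inhibitor, rose from 1.22 ± 0.40 to 79.1 ± 1.7 CPM.

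**Figure D5:**
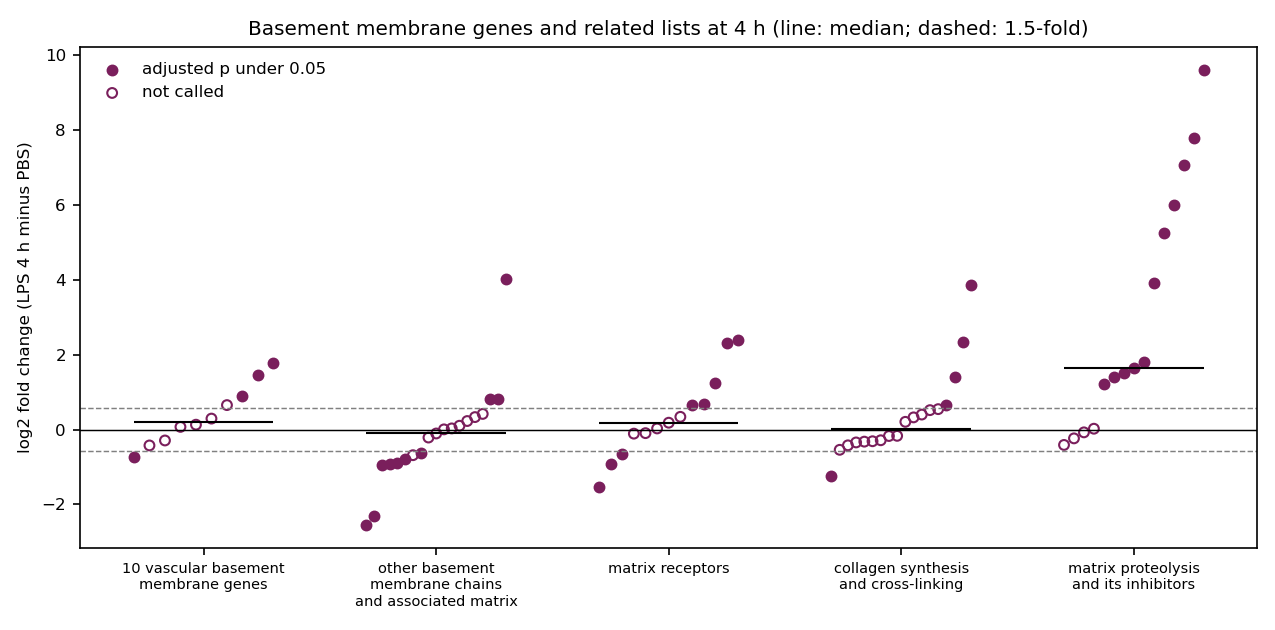
Log2 fold change at 4 h against PBS (y axis) of the 10 vascular basement membrane genes and of the genes in 4 related lists (x axis); filled points passed the 1.5-fold test at an adjusted p under 0.05, open points did not, and lines are medians. The proteolysis list has the highest median, 1.65, and no filled point below 0.

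Markers of the cells that make these chains were read beside the results. Their sums in TPM at 4 h carry the shift between groups that the CPM scale removes. Of all genes 19.1% were called higher and 13.9% lower at 4 h, and 4.25% in either direction at 15 min. The 8 endothelial markers were all measured, summing to 10473 to 10718 TPM under PBS and to 3921 to 3969 TPM at 4 h, where 5 fell (Tek, Pecam1, Slc2a1, Slco1a4 and Cldn5) and Cdh5 rose, with a median log2 fold change in CPM of -1.05. The 6 perivascular fibroblast markers summed to 247 to 263 TPM under PBS, 190 to 197 TPM at 15 min and 110 to 116 TPM at 4 h, with 2 of them lower at 15 min and 3 at 4 h, where the median log2 fold change in CPM was -0.58. The 5 smooth muscle markers summed to 1921 to 1932 TPM under PBS and 1240 to 1258 TPM at 15 min, where 3 fell. They summed to 1491 to 1528 TPM at 30 min and 1014 to 1037 TPM at 4 h, where their median log2 fold change in CPM was -0.14 and 1 rose. That gene, Des (0.69), was -0.01 by library size alone and was not called there. The 8 pericyte markers summed to 2673 to 2781 TPM under PBS, 2768 to 2794 TPM at 15 min and 1229 to 1235 TPM at 4 h. In CPM 2 of the 8 fell at 4 h, and the median log2 fold change was -0.16.

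Astrocyte markers summed to 263 to 270 TPM under PBS, 166 to 196 TPM at 15 min and 305 to 337 TPM at 4 h, with 3 of 6 higher at 4 h. Of these Gfap (0.65) was -0.06 by library size alone and was not called there. Blood cells moved too. The 5 red blood cell markers summed to 9737 to 10963 TPM under PBS and 16270 to 17086 TPM at 4 h, where all 5 rose, and the 6 neutrophil markers to 11.7 to 16.5 and 556 to 580 TPM. Of the neutrophil markers Ly6g, Mpo and Elane were too low to test, at no more than 0.749 TPM in any library. The 6 neuronal markers summed to 199 to 209 TPM under PBS, 300 to 305 TPM at 15 min and 80.3 to 84.2 TPM at 4 h. In CPM 2 of them were called higher at 15 min and 1 lower at 4 h, where the median log2 fold change was -0.34. The 5 oligodendrocyte markers summed to 254 to 266 TPM under PBS and 158 to 174 TPM at 4 h. In CPM 2 of these fell at 4 h and none rose, with a median of -0.57. The 6 markers of microglia and macrophages summed to 70.2 to 72.7 TPM under PBS and 33.4 to 40.1 TPM at 4 h. In CPM 2 of these fell at 4 h and 1, Mrc1, rose (0.91), with a median of -0.62. By library size alone Mrc1 was 0.20 and was not called. The part of any of these cells in the changes of the basement membrane genes was not tested.

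The 5 genes outside the 10 whose log2 CPM followed Col4a1 most closely over the 12 libraries, among 10893 genes with a mean of at least 10 CPM, were Rhoj, Ddx60, Gsdmd, Diaph1 and Spata13, with Pearson's r of 0.998 to 0.999. All 5 had lower means at 15 and 30 min than under PBS and their highest mean at 4 h. Rhoj, a small GTPase of endothelial cells, stood at 72.8 ± 3.8, 52.9 ± 1.0, 53.0 ± 1.3 and 345 ± 6.2 CPM in the 4 groups in order of time. Col4a2 had an r of 0.998 with Col4a1. With 4 groups of similar libraries, the single step at 4 h sets most of these values, which are a description of the libraries.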

How the data were processed

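Cerebral vessels of 12 pools of mice were sequenced (SMART-Seq v4, unstranded, paired 150-base reads). The authors quantified transcripts with Salmon 1.2.1, per the submitters' processing notes, and deposited an estimated count and a TPM for each of 140948 transcripts per library. They also deposited a table of normalized counts (a signal scaled by DESeq2 size factors; build GRCm38.p6) for 54331 genes. Here transcript counts and TPM were summed to genes through GENCODE M21. The 1096 transcripts that could not be joined held 0.482 to 0.850% of fragments. Estimated counts were rounded, filtered by filterByExpr (minimum count 10) and fitted over the 4 groups with edgeR 4.0.16 (R 4.3.3): TMM factors, quasi-likelihood fit, and glmTreat at a log2 fold change of 0.58 with Benjamini-Hochberg adjustment over 19150 genes. The common biological coefficient of variation was 0.052. The quasi-likelihood test against no change was the second test, and it gave standard errors and 95% intervals. The deposited normalized counts, whose within-library ratios follow the TPM and so reflect transcript length, were used with limma 3.58.1 (pseudocounts 1 and 10) as an alternative. DESeq2 1.42.0, other scalings, a transcript length offset, a replicate block and leaving out each library were further alternatives.

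Replicate numbers did not mark shared animals, and same-numbered libraries correlated between -0.049 and 0.068 in their deviations, so the libraries were not treated as pairs. With 3 pools per group, p-values measure the spread between pools. The genes and lists were chosen with earlier results of these data known. Named from each list were the genes called at 15 or 30 min. For 4 h up to 4 called genes with the strongest rise and up to 4 with the strongest fall were named, with a mean of at least 1 CPM. Some genes that this rule names are not reported here. Columns of the table named by number were assigned to libraries through the same number in each library's own file. Transcript estimates of overlapping forms, and of overlapping genes in unstranded libraries, are uncertain. The test scripts were tested on simulated data. Promoter windows and gene positions come from RefSeq (GRCm38.p6) and GENCODE M21.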

Additional observations from a re-analysis of the deposited data

Results flagged for a closer look

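Col4a1, Col4a2, Lamc1 and Lama4 were picked out because their response against PBS differed between 30 min and 4 h after LPS by the direct test of the 4 h libraries against the 30 min libraries (edgeR, glmTreat beyond 1.5-fold). The difference was 2.14 on the log2 scale for Col4a1, 1.91 for Col4a2, 1.03 for Lamc1 and 0.67 for Lama4. At 30 min each of the 4 had a mean below PBS and at 4 h each had a mean above it, with the difference of Lama4 from PBS at 30 min (-0.02) within its error. By library size alone the difference was 0.49 for Lamc1 and 0.13 for Lama4, and neither was called. Groups of 3 libraries were too small to be searched for single outlying libraries.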

How the results depend on the processing

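The test against no change called 10 of the 10 genes at 15 min, 7 at 30 min and 10 at 4 h against PBS, 5 between 15 and 30 min and 10 between 30 min and 4 h, where the 1.5-fold test called 0, 0, 4, 0 and 4. It called 46, 40 and 56 of the 65 genes of the related lists at the 3 times in order, where the 1.5-fold test called 8, 8 and 34. Over all 19150 genes it called 7393, 7066 and 13124 against PBS, where the 1.5-fold test called 814, 884 and 6315. Between 15 and 30 min these tests called 7153 and 911 of all genes, and between 30 min and 4 h 12498 and 5530. The other settings kept the counts of the 10 genes and of the lists within 1.5 times, though not always the same genes. By library size alone Lamc1 was not called at 4 h against PBS, while Lama2, Lama5 and Hspg2 were called lower. With a replicate block the count of the 10 genes called at 4 h against PBS stayed at 4, and pairing changed no call of a member or a ratio; the Col4a1 to Col4a2 change stayed at 0.31 under the block. By library size alone the log2 fold change at 4 h against PBS reversed for Lama4 (-0.051), Lama5 (-0.63), Lamb1 (-0.41) and Nid1 (-0.57). Between 30 min and 4 h it reversed for Lama5 (-0.22), Lamb1 (-0.15) and Nid1 (-0.27). Between 15 and 30 min it reversed for Col4a1 (-0.10), Lama2 (-0.030), Lama4 (-0.0077), Lamb2 (-0.057), Nid1 (-0.075) and Hspg2 (-0.035). These reversals follow from the TMM shift between groups. Leaving out 1 library moved Lama4 at 30 min against PBS between -0.055 and 0.050, with the highest value and a reversed sign without the second 30 min library. Leaving out 1 library kept every count of members called within 1.5 times. The 4 h change of the Lama4 to Lama5 log2 ratio was 0.58 from estimated counts (exact permutation p = 0.00058) and 0.63 from the longest coding transcripts (p = 0.00084, chosen after seeing the data), against 0.10 in gene TPM, and ran from -0.0288 (without the second 4 h library) to 0.19 when 1 library was left out. The other 5 ratios kept their direction and stayed under 0.05 in every alternative. Over all genes the calls at 4 h were 6315, and 10523 by library size alone and 13124 against no change. Over all genes at 15 min 814 calls became 388 with limma (pseudocount 10) and 7393 against no change. Depth limits Lama2 and Lamb1 most, the members with the fewest fragments.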
